A study of Mus musculus with 5 samples.

Results

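The 10 genes described here mark natural killer (NK) cells and cytotoxic lymphocytes, and all 10 were found by exact symbol among the 55291 genes of each library. They are the NK receptor genes Ncr1, Klrb1c, Klrd1 and Klre1, the granule effector genes Gzma, Gzmb and Prf1, the cytokine receptor gene Il2rb and the transcription factor genes Eomes and Tbx21. The RNA came from mouse bone marrow, from cells labelled as monocytes, with 2 Tet2 mutant libraries (numbered 2 and 3 after their replicates) and 3 wild-type libraries (numbered 1, 2 and 3). The Tet2 protein converts methylated cytosine to hydroxymethylcytosine, and its loss is common in blood cancers. The Tet2 allele, strain, age, any treatment, the isolation of the cells and the letters HR, which mark the mutant titles, are not explained by the labels, and separate animals are not stated. All p-values here thus rest on the scatter among these 5 libraries, and that scatter may be technical.

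NK cells are innate lymphocytes that kill infected or transformed cells without a rearranged antigen receptor. Their killing is set by the balance of activating and inhibitory surface receptors, is delivered by granules that hold perforin and granzymes, and depends in development on interleukin-15 signals and on the T-box factors Eomes and T-bet. CD8 T cells share much of this equipment, the granzymes, perforin, the interleukin-2 receptor beta chain and both T-box factors included, whereas Ncr1 and Klrb1c (NK1.1 in some strains) are more restricted to NK cells and their innate relatives. Bone marrow is the main site of NK cell development.

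The libraries held 17459808 and 60508381 counts in mutant libraries 2 and 3 and 53789308 to 72414875 in the wild type, so a count of 3, taken as the floor, was worth 0.172 and 0.0496 CPM (counts per 1000000 counts of the library) in the mutant libraries and 0.0414 to 0.0558 CPM in the wild type. Genes with a count numbered 18047 and 17944 in the mutant libraries and 24532 to 26207 in the wild type. The sum of 12 monocyte and macrophage markers was 24500 and 20060 CPM in the mutant libraries and 15000 to 16700 CPM in the wild type. Most of it was Lyz2, at 19450 and 16000 CPM against 13640 to 15520 CPM. These markers did not all rise, and Ly6c2 stood at 277 and 147 CPM against 410 to 580 CPM (adjusted p = 0.263, edgeR). Markers of other cells were present in every library. The sum of 12 neutrophil and granulocyte precursor markers was 38760 and 20840 CPM in the mutant libraries and 55210 to 70130 CPM in the wild type. It was above the monocyte and macrophage sum in every library, though sums of different genes do not give cell shares. The 8 erythroid markers summed to 9390 and 1742 CPM against 6877 to 17330 CPM. The 16 T cell markers stood at 970 and 991 CPM in the mutant libraries against 154 to 264 CPM in the wild type. The 8 B cell markers stood at 671 and 6531 CPM against 157 to 750 CPM. Tet2 itself was present in all libraries, at 3.84 and 13.9 CPM in the mutant libraries against 13.9, 11.3 and 12.1 CPM in the wild-type libraries (adjusted p = 0.966), and since the allele is unknown its total count does not check the labels. Xist stood at 19.8 and 18.9 CPM in mutant libraries 2 and 3, against 0.219, 0.207 and 36.8 CPM in wild-type libraries 1, 2 and 3, and the Y-linked gene Ddx3y stood at 10.7 and 1.09 CPM against 83.4, 80.0 and 0.186 CPM. By Xist alone, both mutant libraries fell with wild-type library 3. Mutant library 2 also held Y-linked RNA far above that library, with Eif2s3y at 14.6 CPM and Uty at 2.06 CPM, against 0.465 and 0.112 CPM in wild-type library 3. Mutant library 3 was above wild-type library 3 too, by less, with Eif2s3y at 1.75 CPM and Uty at 0.248 CPM. Wild-type library 3 thus shares the Xist class of both mutant libraries but not their Y-linked levels. Each comparison by Xist class below carries that limit. Whether either mutant library holds RNA of more than 1 animal was not tested. In bulk RNA, fewer cells of a type and less RNA per cell cannot be told apart.

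The 10 genes did not move as a block. Klrd1, Il2rb and Eomes rose in the Tet2 mutant, Klrb1c was lower in both mutant libraries than in any wild-type library without passing the test, and Gzmb and Tbx21 were below the wild-type range in mutant library 2 and above it in library 3. All 10 passed the filter on low counts. Of these, 3 of 10 were called higher (edgeR's quasi-likelihood test, Benjamini-Hochberg adjusted p under 0.05), against a background of 10.6% of all 17062 genes tested. None was called lower (background 4.43%), with 1 at an unadjusted p under 0.05, Klrb1c, which DESeq2 did call lower (background 12.5% with DESeq2). The median log2 fold change of the 10 was 0.98, and that of all genes tested was -0.08. By place, 3 members stood above all wild-type libraries in both mutant libraries (background 14.1%, or 22.9% with TMM scaling), and 2 stood below all of them, Klrb1c and Klre1 (46.8%), or 1 with TMM scaling, Klrb1c (33.3%). In mutant library 2, 3 members were above the wild-type range (22.1%, or 35.4% with TMM scaling), 6 below it (66.2%, or 50.3%) and 1 within it. In mutant library 3, 6 were above the range (32.2%), 2 below it (57.1%) and 2 within it, or 7 above (40.7%) and 1 below (49.2%) with TMM scaling.

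The count of members called higher was 1 without wild-type library 1, 2 or 3, where the share of all tested genes called higher was 3.81%, 5.41% and 5.09%. It was 6 without mutant library 2 (26.5% of all genes) and 0 with the Xist class as a covariate (0.592%), so the share over all genes moved widely too. Scaling to library totals in place of TMM moved the median of all genes to -0.58. It called 1 member higher and 1 lower, where 6.92% of all tested genes were called higher and 16.9% lower. The share of higher genes among all called was 29.1%, against 70.5% with TMM. That share was 43.6% with upper-quartile scaling, where the median was -0.35, and 58.2% with DESeq2.

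**Figure D1:**
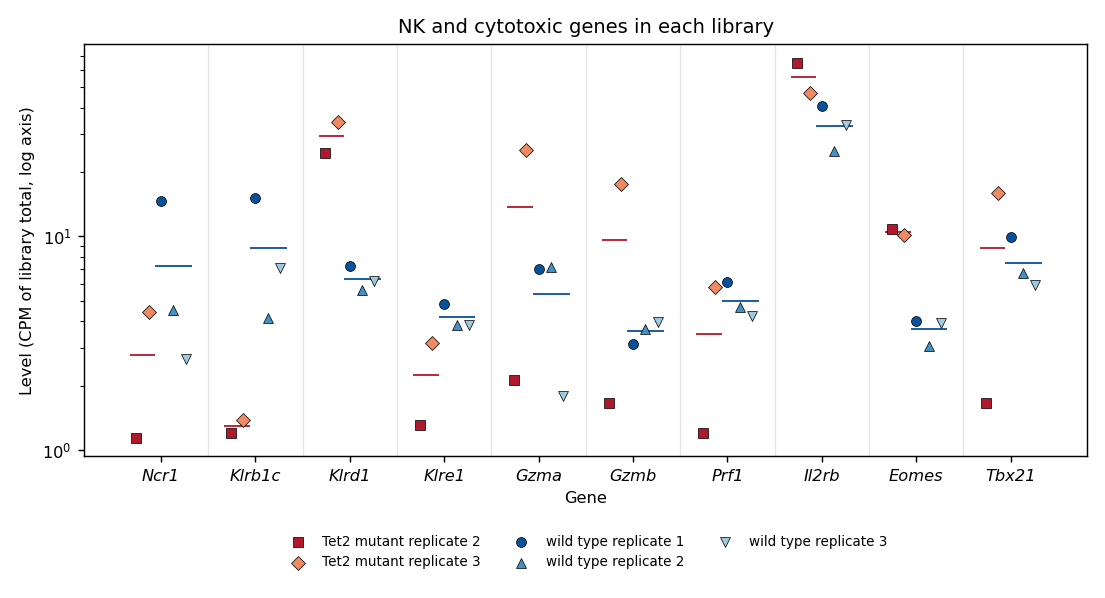
Level of each of the 10 genes in CPM of the library total (log axis), 1 point per library, with horizontal bars at the group means (red, Tet2 mutant; blue, wild type). Klrd1, Il2rb and Eomes in both mutant libraries lie above all 3 wild-type points, whereas Gzmb and Tbx21 lie below every wild-type library in mutant library 2 and above every one in library 3.

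Among the receptors, Klrd1 rose. Klrd1 encodes CD94, which pairs with NKG2 chains to read the class I-like molecule Qa-1, and the gene lies on chromosome 6 (129591782 to 129598775 in GRCm38, plus strand). It stood at 24.5 and 34.3 CPM in mutant libraries 2 and 3, against 7.25, 5.63 and 6.17 CPM in wild-type libraries 1, 2 and 3. Both mutant libraries were above every wild-type library, at 3.86 and 5.41 times the wild-type mean. Klrd1 averaged 29.4 ± 6.95 CPM in the mutant and 6.35 ± 0.82 CPM in the wild type (SD, n = 2 and 3). Its log2 fold change, scaled by TMM unlike these levels, was 2.72 ± 0.38 (SE, edgeR adjusted p = 0.00699), against 2.21 with library totals. The call held without each wild-type library in turn (adjusted p = 0.0345 to 0.041), and the estimate was 2.80 without mutant library 2 and 2.62 without mutant library 3. With the Xist class as a covariate the estimate was 2.74 ± 0.87 and was not called (adjusted p = 0.227). Against wild-type library 3 alone, the one wild-type library high in Xist, the mutant values were 24.5 and 34.3 CPM against 6.17 CPM. T cell markers, some of whose cells also carry CD94, were higher in the same libraries, and their part in the Klrd1 difference was not tested.

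Klre1, the nearest upstream gene on the same strand (chromosome 6, 129577905 to 129585827), is separated from Klrd1 by 5954 bases with no annotated gene in between. It encodes a lectin-like receptor that pairs with KLRI1 or KLRI2. Its level was 1.32 and 3.16 CPM in mutant libraries 2 and 3, against 4.85, 3.84 and 3.87 CPM in wild-type libraries 1, 2 and 3. On this scale both mutant libraries were below every wild-type library, but with TMM scaling library 3 fell within the wild-type range, at 3.53 CPM against 3.31 to 4.16 CPM. The log2 fold change was -0.43 ± 0.68 (adjusted p = 0.658). The ratio of Klrd1 to Klre1 counts, which needs no scaling between libraries, was 18.6 and 10.9 in the mutant libraries, against 1.49, 1.47 and 1.60 in the wild-type libraries. The ratio was thus alike among the wild-type libraries and far above them in both mutant libraries.

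Klrb1c (chromosome 6, 128778485 to 128789215, minus strand) encodes NKR-P1C, the activating receptor known as NK1.1. It had 1.20 and 1.39 CPM in mutant libraries 2 and 3, from 21 and 84 counts, against 15.2, 4.16 and 7.14 CPM in wild-type libraries 1, 2 and 3. The groups did not overlap, and the wild-type libraries themselves differed by 3.65 times. Such a position was common, at 46.8% of all genes tested. The log2 fold change of Klrb1c was -2.25 ± 0.80 (adjusted p = 0.0877). It passed with DESeq2 (adjusted p = 0.00689), with library totals (adjusted p = 0.0485) and without mutant library 2 (adjusted p = 0.0423), and its estimate was -1.47 without wild-type library 1. The annotation places Gm44511 over it on the same strand with 413 shared exon bases, and Gm44511 held at most 4 counts in any library.

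Ncr1 (chromosome 7, 4337724 to 4345164, plus strand) encodes NKp46, an activating receptor that defines NK cells across mammals. It stood at 1.15 and 4.43 CPM in mutant libraries 2 and 3, against 14.7, 4.53 and 2.68 CPM in wild-type libraries 1, 2 and 3. Library 2 was below every wild-type library, with a counting interval of 0.70 to 1.77 CPM (exact Poisson, 95%, counting error only), and library 3 lay within the wild-type range. The wild-type spread of 5.48 times was the widest among the 10 genes, and wild-type library 1 alone set its upper end. The log2 fold change was -0.93 ± 0.94 (adjusted p = 0.478), and its sign was positive without wild-type library 1, at 0.29.

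**Figure D2:**
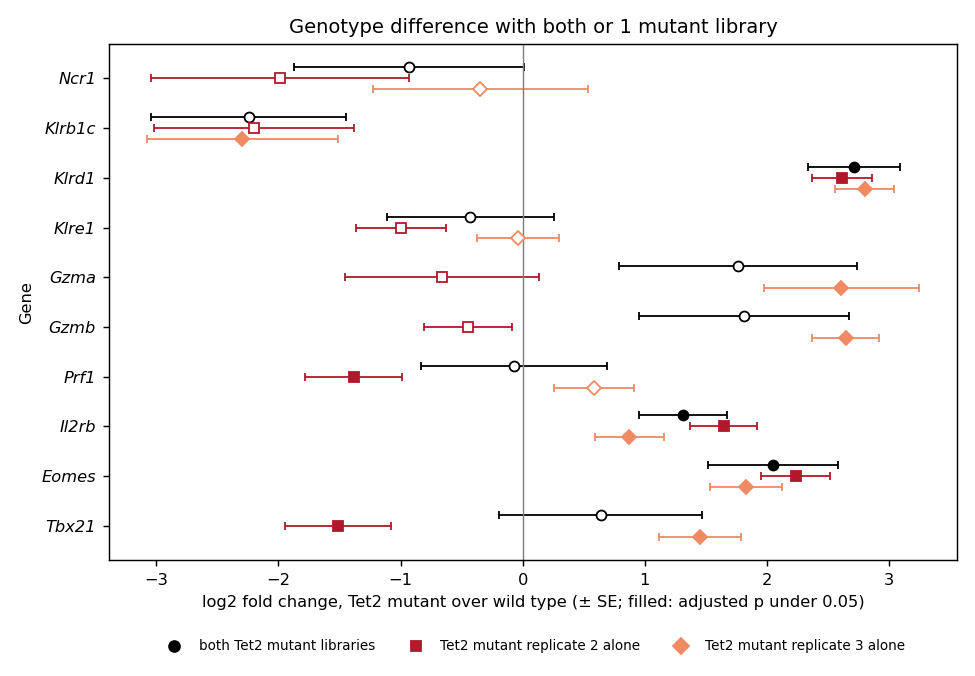
Log2 fold change of Tet2 mutant over wild type for the 10 genes (± SE), from the fit with both mutant libraries (black circles) and from fits with mutant library 2 alone (red squares) or library 3 alone (orange diamonds); filled symbols have an adjusted p under 0.05. Klrd1, Il2rb and Eomes sit right of 0 in all 3 fits, and Gzma, Gzmb, Prf1 and Tbx21 sit on opposite sides of 0 for the 2 mutant libraries.

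The granule effectors split the mutant libraries from each other. Gzma (chromosome 13, 113093825 to 113100981), which encodes a tryptase-like granzyme, stood at 2.12 and 25.3 CPM in mutant libraries 2 and 3, against 7.07, 7.20 and 1.79 CPM in wild-type libraries 1, 2 and 3. Gzmb (chromosome 14, 56258838 to 56262260), whose product cleaves after aspartate and triggers apoptosis, stood at 1.66 and 17.5 CPM in the mutant libraries, against 3.13, 3.70 and 3.96 CPM in the wild-type libraries. mutant library 3 held 11.9 times the Gzma level and 10.5 times the Gzmb level of library 2. Library 2 was within the wild-type range for Gzma and below it for Gzmb, and library 3 was above it for both. Neither gene passed with both mutant libraries, at log2 fold changes of 1.76 ± 0.97 for Gzma (adjusted p = 0.21) and 1.82 ± 0.86 for Gzmb (adjusted p = 0.157).

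Prf1 (chromosome 10, 61297833 to 61304680) encodes perforin, which forms the pore that lets granzymes into the target cell. Its level was 1.20 and 5.82 CPM in mutant libraries 2 and 3, against 6.09, 4.65 and 4.26 CPM in wild-type libraries 1, 2 and 3. Library 2, with 21 counts and a Poisson interval of 0.74 to 1.84 CPM, was below every wild-type library, while library 3 was within their range, or above it with TMM scaling. The log2 fold change was -0.07 ± 0.76 (adjusted p = 0.952). The ratio of Gzma to Prf1 counts was 1.76 and 4.35 in the mutant libraries, against 1.16, 1.55 and 0.42 in the wild-type libraries.

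When each mutant library was set alone against the wild type, the lone mutant library being assumed to vary like the wild type, the members differed between the 2 fits. mutant library 3 alone gave 6 members higher (background 26.5%) and 1 lower (background 32.2%), namely Klrd1, Gzma, Gzmb, Il2rb, Eomes and Tbx21, and Klrb1c. Its log2 fold changes were 2.61 for Gzma (adjusted p = 0.0138), 2.65 for Gzmb (adjusted p = 0.000852) and 1.45 for Tbx21 (adjusted p = 0.0113). mutant library 2 alone gave 3 members higher (background 21.0%) and 2 lower (background 18.4%), namely Klrd1, Il2rb and Eomes, and Prf1 and Tbx21. Its log2 fold changes were -1.38 for Prf1 (adjusted p = 0.0343) and -1.51 for Tbx21 (adjusted p = 0.0346), with -0.66 for Gzma and -0.45 for Gzmb (adjusted p = 0.527 and 0.354). With 1 library each, a difference between the mutant libraries could not be tested against replicate spread. The libraries also differed in depth and in B cell markers, at 671 CPM in library 2 and 6531 CPM in library 3, and the part of either was not tested.

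The promoter windows of 5 members are shown because their genes took the different courses above, with Gzma and Gzmb high in mutant library 3, Ncr1 low in library 2, Klrb1c low in both and Eomes high in both. They are RefSeq sequences on GRCm38.p6, 250 bases before to 50 after the annotated start, read 5′ to 3′ along the gene's strand, at chr13:113100932-113101231 (minus) for Gzma, chr14:56262285-56262584 (minus) for Gzmb, chr7:4337465-4337764 (plus) for Ncr1, chr6:128788592-128788891 (minus) for Klrb1c and chr9:118477939-118478238 (plus) for Eomes. The Eomes window has no match and no capitals. Capitals mark matches on either strand to TGTGGT, the core bound by RUNX factors, or TTCNNNGAA, the core of STAT sites.
Gzma: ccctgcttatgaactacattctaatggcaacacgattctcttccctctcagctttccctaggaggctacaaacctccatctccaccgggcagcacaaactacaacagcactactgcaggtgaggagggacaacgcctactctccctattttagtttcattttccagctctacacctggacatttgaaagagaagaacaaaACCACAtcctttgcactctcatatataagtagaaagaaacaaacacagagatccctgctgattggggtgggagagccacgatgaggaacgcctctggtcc
Gzmb: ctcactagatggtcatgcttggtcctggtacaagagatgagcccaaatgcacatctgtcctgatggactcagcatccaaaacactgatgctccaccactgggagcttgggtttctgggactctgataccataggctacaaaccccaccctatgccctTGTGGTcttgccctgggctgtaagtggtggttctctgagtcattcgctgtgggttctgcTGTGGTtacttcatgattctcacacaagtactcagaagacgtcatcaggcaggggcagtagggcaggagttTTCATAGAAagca
Ncr1: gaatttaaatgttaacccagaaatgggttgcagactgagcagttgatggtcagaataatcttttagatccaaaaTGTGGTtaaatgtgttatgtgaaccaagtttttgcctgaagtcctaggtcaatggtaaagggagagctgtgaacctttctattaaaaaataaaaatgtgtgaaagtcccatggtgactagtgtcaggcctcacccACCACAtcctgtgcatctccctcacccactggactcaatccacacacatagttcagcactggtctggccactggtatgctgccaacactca
Klrb1c: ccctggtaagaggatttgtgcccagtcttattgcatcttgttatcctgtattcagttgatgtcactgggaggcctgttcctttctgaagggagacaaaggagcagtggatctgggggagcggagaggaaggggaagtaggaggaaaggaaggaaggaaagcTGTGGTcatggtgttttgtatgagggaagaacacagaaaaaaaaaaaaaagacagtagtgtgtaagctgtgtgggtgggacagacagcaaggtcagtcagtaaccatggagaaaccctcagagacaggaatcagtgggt
Eomes: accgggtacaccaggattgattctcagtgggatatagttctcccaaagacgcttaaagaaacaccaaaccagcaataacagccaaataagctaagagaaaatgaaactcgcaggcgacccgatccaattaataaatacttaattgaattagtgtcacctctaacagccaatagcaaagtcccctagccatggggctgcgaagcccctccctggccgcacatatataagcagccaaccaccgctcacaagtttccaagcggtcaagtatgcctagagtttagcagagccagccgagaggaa
Windows were found for 8 of the 10 members. A TGTGGT match was found in 6 of the 8, with matches for Klrb1c, Klre1, Ncr1, Prf1, Gzma and Gzmb and none for Eomes and Tbx21, the first of these counts being by gene with a match in any window. By window, it was found in 7 of the members' 10 windows, Klre1 having 1 of 2, and in 16.8% of all 32851 windows. TTCNNNGAA was found in 1 of the 10, that of Gzmb, and in 8.3% of all windows. GGTGTGA, a T-box core, was found in none of the 10 and in 3.98% of all windows. No marked matches overlapped each other.

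Il2rb and Eomes rose, and Tbx21 parted from Eomes in mutant library 2. Il2rb (chromosome 15, 78479256 to 78495271) encodes the beta chain through which interleukin-2 and interleukin-15 signal. It stood at 64.8 and 46.9 CPM in mutant libraries 2 and 3, against 40.5, 25.1 and 33.3 CPM in wild-type libraries 1, 2 and 3, with no overlap. The log2 fold change was 0.76 with library totals and 1.28 ± 0.65 with the Xist class as a covariate. With TMM scaling and no covariate it was 1.31 ± 0.36 (adjusted p = 0.0497). That call lay at the threshold and was absent with upper-quartile scaling (adjusted p = 0.0638), library totals (0.113), limma-voom (0.0556), a filter of 1 CPM in 3 libraries (0.0588), thinning to the lowest total (0.0674), the Xist class (0.35) and without any 1 wild-type library (0.0837 to 0.112).

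Eomes (chromosome 9, 118478212 to 118486132) encodes the T-box factor of mature NK cells and memory CD8 T cells. Its level was 10.9 and 10.1 CPM in mutant libraries 2 and 3, against 4.01, 3.08 and 3.92 CPM in wild-type libraries 1, 2 and 3. The mutant libraries were close to each other and 2.97 and 2.76 times the wild-type mean. These ratios are of library totals. The log2 fold change was 1.52 with library totals and 1.93 ± 1.20 with the Xist class as a covariate. With TMM scaling and no covariate it was 2.05 ± 0.53 (adjusted p = 0.0451). That call was absent with upper-quartile scaling (adjusted p = 0.0625), library totals (0.079), thinning (0.0541) and the Xist class (0.414), and without any 1 wild-type library (0.143 to 0.195). Against wild-type library 3 alone the levels were 10.9 and 10.1 CPM in the mutant libraries against 3.92 CPM for Eomes, and 64.8 and 46.9 CPM against 33.3 CPM for Il2rb. An antisense gene, Gm33460, shares 118 exon bases with Eomes and held no count in the mutant libraries and 3 to 13 counts in the wild type.

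Tbx21 (chromosome 11, 97098071 to 97115331) encodes T-bet, the factor that drives interferon-gamma production and late NK maturation. It stood at 1.66 and 16 CPM in mutant libraries 2 and 3, against 9.98, 6.73 and 5.91 CPM in wild-type libraries 1, 2 and 3. Library 2 was below and library 3 above every wild-type library, and the log2 fold change was 0.64 ± 0.83 (adjusted p = 0.581). The ratio of Eomes to Tbx21 counts was 6.55 and 0.63 in the mutant libraries, against 0.40, 0.46 and 0.66 in the wild-type libraries. mutant library 3 was within the wild-type range of this ratio and library 2 stood apart from it.

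Per kilobase of exon, which allows genes to be compared within a library, Klrd1 was the most abundant of the 10 in both mutant libraries, at 19.1 and 26.8 CPM per kilobase. In the wild type its mean of 4.96 ± 0.64 (SD, n = 3) came after Il2rb at 7.69 ± 1.80 and Gzma at 5.32 ± 3.07. Il2rb was above Klrd1 in each wild-type library, whereas Gzma and Klrd1 did not differ beyond their spread. Ncr1 followed in the wild type at 4.74 ± 4.20, ranging from the first place in library 1 to the seventh in library 3. Klre1 was ninth by mean in both genotypes, at 0.64 ± 0.37 CPM per kilobase in the mutant and 1.20 ± 0.17 in the wild type. Klrb1c had the lowest mutant mean, at 0.44 ± 0.04 CPM per kilobase, against 2.98 ± 1.92 in the wild type. Eomes was the lowest in the wild type, at 0.88 ± 0.12, and had 2.53 ± 0.13 in the mutant.

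NK receptor counts were also set against those of the T cell receptor complex within each library. The sum of Ncr1 and Klrb1c over Cd3e, a CD3 chain that mature NK cells carry little of at the surface, was 0.041 and 0.085 in mutant libraries 2 and 3, against 1.72, 0.82 and 0.52 in wild-type libraries 1, 2 and 3. The groups did not overlap, but the genes of this ratio had been seen to move and it is given as a description, with no test. The sum of all 4 receptors over Cd3d, Cd3e and Cd3g was 0.093 and 0.134 in the mutant libraries, against 0.965, 0.535 and 0.173 in the wild-type libraries (exact two-sided permutation p = 0.2, where 0.1 is the smallest that 5 libraries allow). The genes of this wider ratio were also chosen with earlier results of these data known, and its p-value carries that limit. The wider sum includes Klrd1. The lowest wild-type value of the wider ratio came from library 3, where Cd3d stood at 76.7 CPM. Cd3d stood at 12.1 and 10.3 CPM in wild-type libraries 1 and 2. Cd3e itself stood at 56.9 and 68.7 CPM in the mutant libraries against 10.6 to 18.7 CPM in the wild type (log2 fold change 2.53 ± 0.35, adjusted p = 0.00691).

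**Figure D3:**
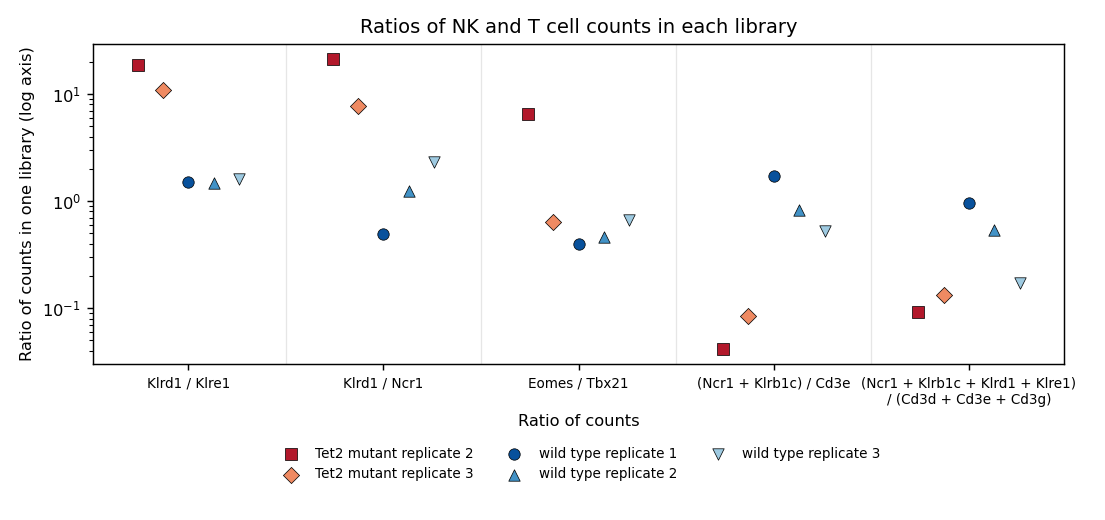
Ratios of raw counts within each library (log axis), 1 point per library: Klrd1 to Klre1, Klrd1 to Ncr1, Eomes to Tbx21, Ncr1 and Klrb1c to Cd3e, and the 4 NK receptor genes to the 3 CD3 genes. Klrd1 to Klre1 is 18.6 and 10.9 in the mutant libraries against 1.47 to 1.60 in the wild type, and the ratios to CD3 are lower in both mutant libraries.

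Among 30 other NK surface genes, 28 were tested, 7 rose, 2 fell and 19 did not pass. Of all genes tested 10.6% rose and 4.43% fell, and 2 of 28 that fell is near that share. This and the following lists stand against these shares where edgeR used all 5 libraries. With DESeq2 17.4% of all genes rose and 12.5% fell. Without wild-type library 1, 2 or 3 the shares that rose were 3.81%, 5.41% and 5.09%. Counts without a mutant library stand against the shares given above for the other mutant library alone. The share of all genes at an unadjusted p under 0.05 was not counted. The median log2 fold change of the list was 1.46, against -0.08 for all genes, and 4 rose without wild-type library 1, 13 without mutant library 2 and 11 without mutant library 3. Crtam, a receptor of activated NK and CD8 T cells, rose to 20.2 and 34.0 CPM in mutant libraries 2 and 3, against 1.44 to 2.11 CPM in the wild type (log2 fold change 4.43, adjusted p = 0.00225). Tigit, an inhibitory receptor, and Cd244a, which encodes 2B4, rose 5.40 and 2.73 log2 units (adjusted p = 0.00348 and 0.00356). Klri1, a partner of Klre1, had 116 and 733 counts in the mutant libraries, or 6.64 and 12.1 CPM, against 3, 8 and 12 counts in wild-type libraries 1, 2 and 3 (adjusted p = 0.0066). For its sister gene Klri2 the values were 50.8 and 11.4 CPM in the mutant libraries against 6.35, 0.11 and 1.66 CPM (adjusted p = 0.0752).

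Klrk1, which encodes the activating receptor NKG2D, rose to 190 and 62.5 CPM in the mutant libraries, against 17.9 to 32.2 CPM in the wild type (adjusted p = 0.019). Klrc1, whose product NKG2A is the inhibitory partner of CD94, did not pass, at 10.02 and 23.8 CPM in the mutant libraries against 1.6 to 12 CPM in the wild type (adjusted p = 0.193). The genes that fell were Itga2, which encodes the NK marker CD49b, and Ly6c1, and both calls were absent without any 1 wild-type library. Itga2 had no count in either mutant library, which allows up to 0.172 and 0.0496 CPM, against 0.446 to 0.501 CPM in the wild type (adjusted p = 0.0297). Reads of the Klr genes, a family of close relatives, are uncertain where the counting could split them.

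Granule and release genes beyond the members gave 5 that rose, 0 that fell and 12 that did not pass, of 17 tested, with a median of 0.59. At an unadjusted p under 0.05 there were 7, and DESeq2 called 5 higher and 1 lower. Gzmk, a granzyme abundant in memory CD8 T cells, rose to 47.5 and 42.3 CPM in mutant libraries 2 and 3, against 2.90 to 4.74 CPM in the wild type (log2 fold change 4.08 ± 0.40, adjusted p = 0.00199). Unlike Gzma and Gzmb it was close in both mutant libraries. Ctsc, the protease that activates granzymes and that myeloid cells also make, Serpinb9, an inhibitor of granzyme B, and Srgn, the granule proteoglycan, rose 2.73, 2.30 and 1.22 log2 units (adjusted p = 0.00343, 0.00981 and 0.0305), and Fasl, the ligand of the death receptor Fas, by 1.99 (adjusted p = 0.0424). Gzme, Gzmf, Gzmg and Gzmn had no count in any library. The number that rose was 3 without each wild-type library in turn, where 3.81% to 5.41% of all genes rose.

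Of 22 transcription factors of NK and other innate lymphoid cells, 5 rose, 0 fell and 17 did not pass, with a median of 0.70, 10 had an unadjusted p under 0.05, and DESeq2 called 9 higher and 1 lower. Id2, the inhibitor of E proteins that NK and innate lymphoid cells need, rose to 837 and 629 CPM in mutant libraries 2 and 3, against 149 to 163 CPM in the wild type (log2 fold change 2.79, adjusted p = 0.00219). Bhlhe40, Prdm1, which encodes Blimp-1, and Tox2 rose 2.53, 3.57 and 3.66 log2 units (adjusted p = 0.00422, 0.0139 and 0.0256). Runx3, which encodes a RUNX factor of cytotoxic lymphocytes, rose by 1.87 (adjusted p = 0.0292), at 28.8 and 28.5 CPM in the mutant libraries against 7.94 to 13.6 CPM in the wild type. Many of these factors are also made by macrophages, dendritic cells or T cells. The rises numbered 2, 3 and 3 without wild-type libraries 1, 2 and 3, where 3.81%, 5.41% and 5.09% of all genes rose.

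In the list of cytokines and cytokine receptors, 7 of 20 tested genes rose, 1 fell and 12 did not pass (median 1.15). Il2rg, the common gamma chain that joins Il2rb in the receptor, rose to 606 and 706 CPM in mutant libraries 2 and 3, against 71.9 to 92.1 CPM in the wild type (log2 fold change 3.55 ± 0.24, adjusted p = 0.000848). Il15ra, which presents interleukin-15 to NK cells, rose 1.78 log2 units (adjusted p = 0.0204), while Il15 did not pass, at 29.2 and 17.5 CPM in the mutant libraries against 19.7 to 25.1 CPM in the wild type (adjusted p = 0.3). Il18, Il12b and Il21r, a pair of NK-activating cytokine genes and a receptor gene, also rose (adjusted p = 0.000884, 0.0032 and 0.0121). Ifng, the main cytokine of NK and T helper cells, rose to 5.90 and 13.6 CPM in the mutant libraries, against 1.09 to 2.19 CPM in the wild type (adjusted p = 0.0291). Il18rap, a chain of the interleukin-18 receptor, fell to 15.1 and 10.6 CPM, against 56.3 to 95.6 CPM in the wild type (log2 fold change -1.93, adjusted p = 0.0293), a call absent without any 1 wild-type library. The rises numbered 4 without each wild-type library in turn, where 3.81% to 5.41% of all genes rose.

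Adaptors and kinases of NK receptors rose in 9 of 17 cases, with 0 that fell and a median of 1.33. Sh2d1b1, which encodes the EAT-2 adaptor of 2B4-type receptors, rose to 84.3 and 89.3 CPM in mutant libraries 2 and 3, against 6.17 to 8.66 CPM in the wild type (log2 fold change 4.08 ± 0.31, adjusted p = 0.000884). Sh2d2a, Lat2 and Lck, signalling genes shared with T, B or myeloid cells, rose 3.06, 2.41 and 1.84 log2 units (adjusted p = 0.00278, 0.00225 and 0.0048). Zap70, a kinase that T cells and NK cells use, did not pass, at 7.62 and 4.30 CPM in the mutant libraries against 5.19 to 7.53 CPM in the wild type (adjusted p = 0.514). The count was 14 without mutant library 3.

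Ligands of NK receptors rose in 6 of 15 tested cases, fell in 1 and did not pass in 8 (median 1.20). Receptors and their ligands did not move in 1 common way. H2-T23, which encodes the Qa-1 ligand of CD94 receptors, rose to 459 and 498 CPM in mutant libraries 2 and 3, against 208 to 245 CPM in the wild type (adjusted p = 0.00808). Cd48, the ligand of 2B4, rose 2.56 log2 units (adjusted p = 0.0015), and Cadm1, the ligand of Crtam, by 4.29 (adjusted p = 0.00434), and H2-K1, a class I gene with reads that may be shared in its family, by 1.95 (adjusted p = 0.0057). Against these, Pvr, a ligand of Tigit, stood at 0.286 and 1.75 CPM in the mutant libraries against 2.44 to 3.44 CPM in the wild type (adjusted p = 0.382). Nectin2, another ligand of Tigit, went the other way. Both mutant libraries exceeded every wild-type library for Nectin2, without a call (log2 fold change 1.66, adjusted p = 0.133). Ulbp1, a ligand of NKG2D, stood at 2.23 and 3.45 CPM against 8.63 to 11.5 CPM (adjusted p = 0.137). Raet1e, also a ligand of NKG2D, had no count in the mutant libraries, against 0.203 to 0.223 CPM in the wild type (adjusted p = 0.0423), and its call was absent without any 1 wild-type library. The rises numbered 4 without each wild-type library in turn. With the Xist class as a covariate, each of the 6 lists of NK-related genes had 0 or 1 gene that rose and 0 that fell.

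**Figure D4:**
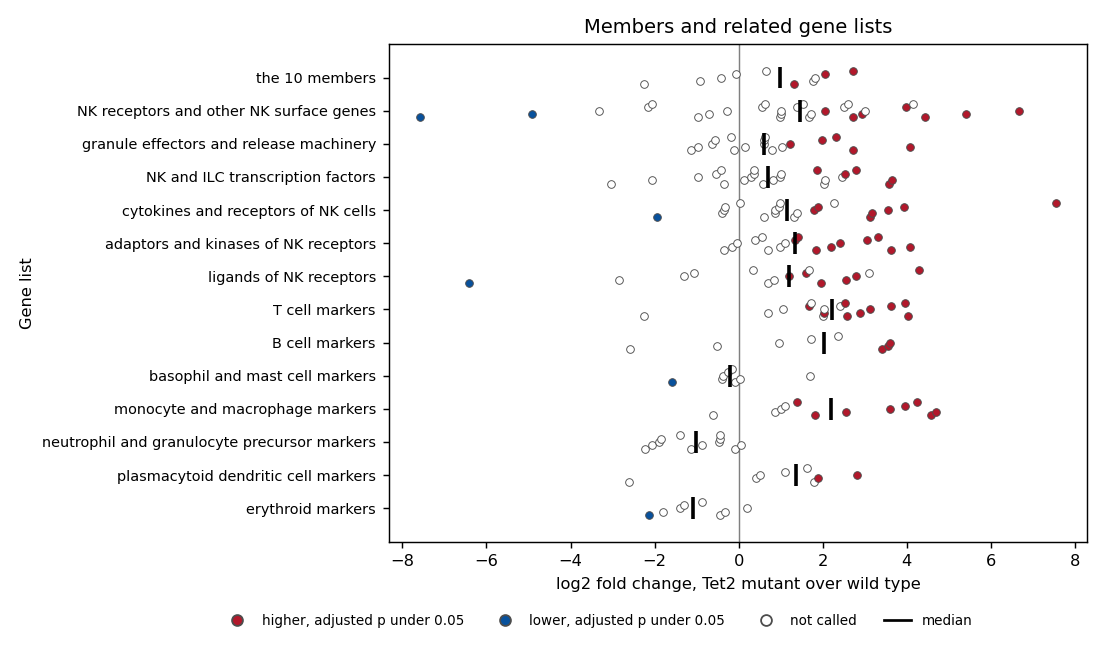
Log2 fold change of Tet2 mutant over wild type for each tested gene of the 10 members, of 6 lists of NK-related genes and of 7 lists of markers of other cells, with the median of each list as a black bar; red points rose, blue points fell, open points were not called. Of the 10 members 3 are red and 0 blue, and 9 of 16 T cell markers are red.

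Markers of other cells that can carry cytotoxic genes moved beside the members. Of the 16 T cell markers 9 rose, 0 fell and 7 did not pass (median 2.22), the rises numbering 7 to 14 with 1 library left out and 14 without mutant library 2. The T cell receptor genes Trac and Trbc2 and the CD3 gene Cd3g were among them, at 3.95, 3.62 and 4.02 on the log2 scale. Cd8b1, which encodes a CD8 chain, rose to 24.2 and 26.7 CPM in mutant libraries 2 and 3, against 5.39 to 7.09 CPM in the wild type (adjusted p = 0.0101), while Cd8a stood at 4.41 and 47.0 CPM against 5.34 to 7.25 CPM (adjusted p = 0.0737). Cd8a was thus below the wild-type range in library 2 and above it in library 3, and so were Cd4, Cd5 and Thy1. Cd4 stood at 1.95 and 11.6 CPM against 3.58 to 6.89 CPM in the wild type. Cd3g, Trbc2, Trac and Cd8b1 were above the range in both mutant libraries. Trdc, the constant gene of the delta chain, did not pass, at 0.97 and 0.07 CPM in the mutant libraries against 1.88 to 6.51 CPM in the wild type (adjusted p = 0.227).

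Basophils and mast cells also make granule proteases, and of their 8 tested markers 0 rose, 1 fell (Hdc, adjusted p = 0.0167) and 7 did not pass. The defining basophil gene Mcpt8 stood at 113 and 130 CPM in mutant libraries 2 and 3, against 120 to 229 CPM in the wild type, and Mcpt4, a connective tissue mast cell protease, had no count in any library. Of the B cell markers 3 of 8 rose, Cd79b, Ms4a1 and Cd79a, with 0 without wild-type libraries 1 or 3 or mutant library 3. Of the monocyte and macrophage markers 8 of 12 rose, C1qa, C1qb, C1qc and Cd68 with the smallest p, and 6 to 11 with 1 library left out. Plasmacytoid dendritic cell markers rose in 2 of 8 cases (Bst2 and Ly6d), 6 of 8 without mutant library 2, and Siglech, a defining gene of these cells, stood at 6.24 and 1.04 CPM in the mutant libraries against 29.2 to 38.1 CPM in the wild type (adjusted p = 0.0673). No neutrophil marker of 12 was called by edgeR, with 4 at an unadjusted p under 0.05, Ctsg and Elane with the smallest (adjusted p = 0.057 and 0.0866), whereas DESeq2 called 4 lower and the test without mutant library 2 called 11 lower. Of the erythroid markers 1 of 8 fell, Epor (adjusted p = 0.032), against 0 without any 1 wild-type library and 8 without mutant library 2. The part of these cells in the members' levels was not tested.

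Likeness of pattern was measured as the root-mean-square difference between centred log2 CPM profiles over the 5 libraries. The median profile of the 10 members was -1.20 and 0.65 in mutant libraries 2 and 3, against 0.42, 0.05 and -0.20 in wild-type libraries 1, 2 and 3, so its lowest and highest points were both mutant libraries. Klrd1, Il2rb and Eomes, above the wild-type range in both mutant libraries, and Klrb1c, below it in both, did not follow this median profile. The profiles nearest to the median among the other tested genes were those of H2aw, Irf2, Mgat4a, Cald1 and Dgke, at differences of 0.07 to 0.09. Irf2, which encodes an interferon regulatory factor needed for NK maturation in mice, stood at 23.9 and 90.7 CPM in the mutant libraries, against 83.5, 57.2 and 48.8 CPM in the wild-type libraries (adjusted p = 0.658).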

How the data were processed

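The deposited files hold raw counts per gene symbol, 1 file per library, made by the authors. The submitters' processing notes name Trimmomatic, STAR and the mm10 build. Versions, the read counter, its annotation and its strand setting were not found in the sources used here. Per the labels' protocols, 1.3 ug of total RNA went into SMARTer mRNA-Seq libraries, and no molecular identifiers are named, so intervals and floors (3 counts) cover counting error only.

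Levels are CPM of the library total. The genotypes were compared with edgeR 4.0.16 (R 4.3.3) by the quasi-likelihood F-test on the 17062 genes kept by filterByExpr, scaled by TMM (factors 0.72 and 0.90 in mutant libraries 2 and 3 and 1.14 to 1.17 in the wild type), with Benjamini-Hochberg adjustment over all of them and a threshold of 0.05. Each SE was derived from the fold change and its F statistic. The common dispersion corresponded to a biological coefficient of variation of 0.507. Fold changes are Tet2 mutant over wild type. DESeq2 1.42.0 and limma 3.58.1 (voom) served as alternatives, as did other scalings and filters, thinning, the replicate block, the Xist class (high above 5 CPM) and each library left out. The test was checked on simulated counts with 50 genes changed at each of 4 sizes, every gene being given the common dispersion. It called 0 of 50 at 2-fold, 4 at 4-fold, 37 at 8-fold and 47 at 16-fold. It also called 5 unchanged genes, with 14123 genes tested. In the data Il2rb was called at a log2 fold change of 1.31, so these counts do not give the power for each gene. A gene that did not pass is thus not shown to be unchanged. Positions and exon lengths come from GENCODE M21 (GRCm38), and 8 of 10 members matched RefSeq promoter windows.

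The members and the gene lists were chosen with earlier results of these data known. Genes were named as all members, up to 4 called genes of each list with the smallest p (2 where none was called), markers at 0 and the 5 nearest profiles. Cd244 was matched as Cd244a through RefSeq synonyms. Cd3d, Cd3e, Cd4, Cd5, Cd8a, Cd8b1, Ddx3y, Eif2s3y, Fasl, Ifng, Il15, Il15ra, Il18rap, Itga2, Klra1, Klra3, Klra4, Klra6, Klra7, Klra8, Klra9, Klrc1, Klri2, Klrk1, Ly6c1, Ly6c2, Lyz2, Mcpt8, Nectin2, Pvr, Raet1e, Runx3, Siglech, Tet2, Thy1, Trdc, Ulbp1, Uty, Xist and Zap70 were named after their values were seen.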

Additional observations from a re-analysis of the deposited data

How the results depend on the processing

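Members called higher numbered 3, where 10.6% of all genes tested were called higher. They were 1 with upper-quartile scaling (8.32% of all genes), 1 with library totals (6.92%) and 1 after thinning to the lowest total (9.52%). They were 1 with the replicate block (4.41%) and 0 with the Xist class (0.592%). With 1 library left out they ranged from 1 to 6 (3.81% to 26.5%). Members called lower numbered 0 (4.43% of all genes), against 1 with library totals (16.9%) and 1 with DESeq2 (12.5%). With 1 library left out they numbered 0 to 2 (0.0371% to 32.2%). Over all genes, 1801 were higher and 755 lower. The higher count was 1181 with library totals, 2972 with DESeq2, 3059 without a filter, 752 with the replicate block, 101 with the Xist class and 616 to 4904 with 1 library left out. The lower count was 1837 with upper-quartile scaling, 2877 with library totals, 2137 with DESeq2, 1365 with limma-voom, 1498 without a filter, 472 with a filter of 1 CPM, 291 after thinning, 232 with the replicate block, 0 with the Xist class and 6 to 5958 with 1 library left out. Signs reversed for Ncr1 (0.49 with the Xist class, 0.29 without wild-type library 1, against -1.99 without mutant library 3), Gzma (-0.66), Gzmb (-0.45) and Tbx21 (-1.51) without mutant library 3 (against 2.61, 2.65 and 1.45 without mutant library 2), and Prf1 (0.14 with the Xist class, 0.31, 0.12 and 0.07 without wild-type libraries 1, 2 and 3, and 0.59 without mutant library 2, against -1.38 without mutant library 3). Of the reversed values only that of Tbx21 was called. The log2 ratio of NK receptor to CD3 counts was -2.01, -3.94 for Ncr1 and Klrb1c over Cd3e, and -2.69 to -1.45 with 1 library left out. The replicate block pairs libraries numbered 2 and 3, and the deviations of same-numbered libraries correlated at -0.03 and -0.02, so the block rests on a shared number only. With it Klrd1 was called (adjusted p = 0.0427), and Eomes (0.494) and Il2rb (0.192) were not. Of the causes of these changes none was tested, apart from fewer libraries or fewer genes where a setting removes them. The 17459808 counts of mutant library 2 limit its low genes, with 20 to 37 counts for 7 of the members.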

Other observations

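The Ly49 receptors, which let mouse NK cells read class I molecules, are encoded by the Klra genes. Of 8 listed Klra genes 7 were tested, and edgeR called 0, with 1 at an unadjusted p under 0.05 (Klra6), while DESeq2 and limma-voom called 0 as well, with 4 and 2 at an unadjusted p under 0.05. Klra3, Klra8 and Klra9 were above the wild-type range in mutant library 3, while in mutant library 2 Klra3 and Klra8 were within it and Klra9 below it. Mutant libraries 2 and 3 stood at 0.63 and 5.60 CPM against 0.08 to 1.22 CPM in the wild type for Klra3, at 0.46 and 3.22 CPM against 0.26 to 2.32 CPM for Klra8, and at 0.40 and 2.07 CPM against 0.43 to 1.53 CPM for Klra9. Klra7 had the opposite order, at 11.3 and 1.55 CPM in mutant libraries 2 and 3 against 2.73 to 3.83 CPM in the wild type. Klra1 stood at 0.46 and 0.12 CPM in the mutant libraries, below the 1.04 to 2.85 CPM of the wild type (adjusted p = 0.186). Klra4 varied most among wild-type libraries, at 3.15, 3.0 and 0.09 CPM in libraries 1, 2 and 3. The Klra genes differ in number and sequence between mouse strains and resemble each other, so single values are uncertain, and the strain of these mice was not stated in the labels.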
